A study of Mus musculus with 12 samples.

Results

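C1q is the recognition molecule of the classical complement pathway and is built from the products of the genes C1qa, C1qb and C1qc. These 3 genes were followed here in the mouse hippocampus, at the level of the gene and of each exon probe set, which is a small group of oligonucleotides that detects 1 stretch of an exon. Members were the probe sets annotated with exactly 1 gene symbol where that symbol was C1qa, C1qb or C1qc. This rule found 15 of the 321091 probe sets with 1 symbol, namely 4 for C1qa, 6 for C1qb and 5 for C1qc. All 15 passed the filter on dim signal used here, as did 244016 probe sets in all, and the members gave 3 of the 18007 genes that were tested.

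In each C1q molecule the A, B and C chains wind around each other through collagen-like stalks and end in globular heads that bind antibodies, pentraxins, fibrillar amyloid and other ligands. Binding activates the serine proteases C1r and C1s, which cleave C4 and C2, and the cascade then deposits C3 fragments that phagocytes recognize through complement receptors. In the brain microglia are the main producers of C1q, and C1q has been linked to the tagging of synapses in development and in mouse models of Alzheimer's disease.

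Exon arrays measured RNA of the hippocampus in 12 separate mice, each 14 to 15 months old and with an array of its own, in 4 groups of 3. The groups were wild-type mice, 5xFAD mice, eIF2α+/S51A mice and 5xFAD;eIF2α+/S51A mice. 5xFAD mice carry human transgenes with mutations of familial Alzheimer's disease, expressed in neurons from Thy1 regulatory sequences, and eIF2α+/S51A mice are heterozygous for a knock-in allele whose translation initiation factor eIF2α cannot be phosphorylated at that serine. 5xFAD mice kept on B6/SJL were crossed with knock-in mice kept on C57BL/6J, so that all groups shared a mixed genetic background that can vary from mouse to mouse. The values are log2 signals, so that a difference of 1 is a change by a factor of 2. Signals of different genes or probe sets depend on their own oligonucleotides and were not ranked against each other.

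Array medians lay between 5.39 and 5.45, and any pair of arrays correlated over genes at 0.962 to 0.989. Thy1, whose sequences drive the transgenes, was higher in all 6 mice with the transgenes than in all 6 without them, by 0.87 in the fit. Xist, a transcript of the inactive X chromosome, was at 11.27 to 11.57 in 1 mouse of each group and at 4.07 to 4.48 in the others. Neuron markers were high in all mice (list mean 11.45 to 11.71), as in hippocampal tissue. Markers of the choroid plexus, a tissue next to the hippocampus, varied widely within groups, and their transthyretin gene Ttr ranged from 9.73 to 13.38.

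The 3 genes lie side by side on mouse chromosome 4 in the order C1qb, C1qc, C1qa, with no other tested gene between them. The 250 bases before the start of C1qb and of C1qc are shown because these neighbouring genes rose with the transgenes; 2 of the 3 C1q genes were matched in the promoter table. Both come from the RefSeq annotation of GRCm38.p6 and are read 5′ to 3′ on the minus strand, C1qb from chr4:136886201-136886450 and C1qc from chr4:136892915-136893164. Capitals mark matches to GAGGAA, the core of the PU box bound by the myeloid factor PU.1, on either strand (TTCCTC on the strand shown), and to TGCTGA, a core of the sites bound by Maf factors.
C1qb: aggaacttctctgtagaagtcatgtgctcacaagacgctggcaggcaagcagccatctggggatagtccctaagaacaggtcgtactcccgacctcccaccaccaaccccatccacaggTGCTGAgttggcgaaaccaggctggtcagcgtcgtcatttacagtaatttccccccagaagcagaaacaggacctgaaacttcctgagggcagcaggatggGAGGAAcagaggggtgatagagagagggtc
C1qc: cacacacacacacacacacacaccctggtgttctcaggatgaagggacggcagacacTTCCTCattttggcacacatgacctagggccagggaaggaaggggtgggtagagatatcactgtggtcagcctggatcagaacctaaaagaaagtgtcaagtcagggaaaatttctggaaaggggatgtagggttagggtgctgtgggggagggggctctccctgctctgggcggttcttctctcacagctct
C1qb held GAGGAA once, with its first base 30 bases before the start, and TGCTGA once, 131 bases before it. C1qc held GAGGAA once, on the opposite strand at 193 bases before the start, and TGCTGA on neither strand. TGANTCA, the AP-1 site, was in neither window. Over all 32851 windows of the same length, searched on both strands, GAGGAA was found in 23.3%, TGCTGA in 16.1% and TGANTCA in 6.7%, so these matches are common and describe the letters only. TGCTGA can share its last letters with the start of either other motif, which it did not do here. The motifs were chosen with the expression values known.

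C1qa, C1qb and C1qc were all higher in mice with the 5xFAD transgenes, with or without the eIF2αS51A allele, and no mouse with the transgenes overlapped a mouse without them. C1qa, which encodes the A chain, measured 7.80, 7.87 and 7.77 in wild-type mice, 8.94, 9.21 and 9.00 in 5xFAD mice, 7.85, 7.77 and 7.69 in eIF2α+/S51A mice and 9.04, 9.24 and 9.00 in 5xFAD;eIF2α+/S51A mice. Its lowest value with the transgenes lay 1.07 above its highest value without them. C1qb, the B chain gene, measured 9.34, 9.39 and 9.66 in wild-type, 10.89, 11.20 and 10.99 in 5xFAD, 9.43, 9.49 and 9.30 in eIF2α+/S51A and 11.01, 11.15 and 11.08 in 5xFAD;eIF2α+/S51A mice. The gap between mice with and without the transgenes was 1.24 for this gene. C1qc, the C chain gene, measured 7.27, 7.42 and 7.55 in wild-type, 9.04, 9.28 and 9.14 in 5xFAD, 7.33, 7.64 and 7.32 in eIF2α+/S51A and 8.83, 9.16 and 9.19 in 5xFAD;eIF2α+/S51A mice. The gap was 1.18, and within each pair of groups that differed only in the knock-in allele the values of all 3 genes overlapped. Of all tested genes, 3.50% had all 6 mice with the transgenes above all 6 others.

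**Figure D1:**
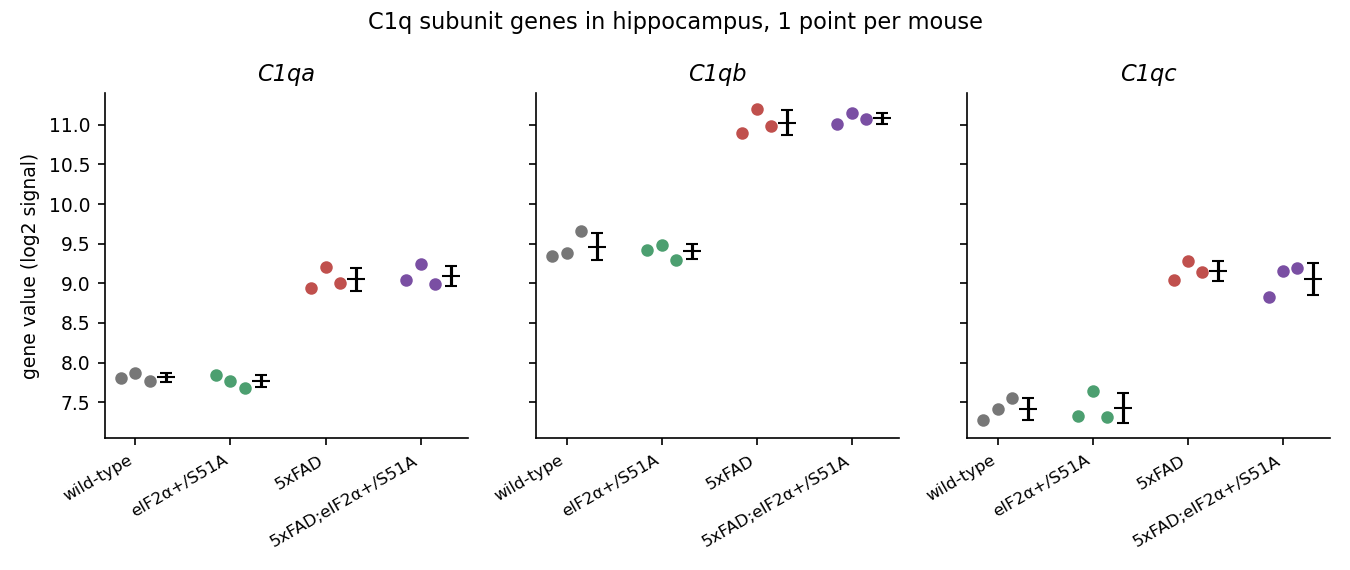
Gene values of C1qa, C1qb and C1qc (log2 signal, vertical axis) in the 4 genotype groups, 1 point per mouse, with the mean and SD of 3 mice beside each group. In each panel all 6 mice with the 5xFAD transgenes lie above all 6 mice without them, by at least 1.07.

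In 5xFAD against wild-type mice, C1qa rose from 7.81 ± 0.05 to 9.05 ± 0.14 (SD, n = 3 each), a difference of 1.24 with a standard error of 0.10, or 2.36-fold (limma, Benjamini-Hochberg adjusted p = 2.09e-05). C1qb rose from 9.46 ± 0.17 to 11.03 ± 0.15, by 1.56 with a standard error of 0.11, or 2.96-fold (limma, adjusted p = 8.94e-06). C1qc rose from 7.42 ± 0.14 to 9.16 ± 0.12, by 1.74 with a standard error of 0.13, or 3.34-fold (limma, adjusted p = 1.37e-05). All 3 passed the thresholds of the study's methods, adjusted p under 0.02 with a change of more than 1.6-fold, which 0.966% of the tested genes passed upwards in this comparison. Ordered by the size of the rise among 18007 genes, C1qc stood at place 32, C1qb at 38 and C1qa at 64.

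The rise was seen again in the other 6 mice, all of which carried the knock-in allele. C1qa was at 9.09 ± 0.13 in 5xFAD;eIF2α+/S51A mice and at 7.77 ± 0.08 in mice with the allele alone, C1qb at 11.08 ± 0.07 and 9.40 ± 0.10, and C1qc at 9.06 ± 0.20 and 7.43 ± 0.19 (SD, n = 3 each). The differences were 1.32, 1.68 and 1.63, or 2.50-fold, 3.20-fold and 3.09-fold, with limma's adjusted p of 1.87e-05, 5.79e-06 and 2.24e-05. All 3 genes were called higher, as were 1.00% of the tested genes. No mouse entered both of these differences, but the same fit over all arrays gave their spread, so their p-values are not independent. With limma on only the arrays compared, adjusted p in 5xFAD against wild-type mice was 7.33e-04, 7.33e-04 and 2.89e-04 for C1qa, C1qb and C1qc. Among mice with the allele it was 4.58e-04, 1.47e-04 and 5.76e-04. All 3 genes were thus still called in both comparisons. Averaged over both, the effect of the transgenes in 6 against 6 mice was 1.28 for C1qa, 1.62 for C1qb and 1.68 for C1qc (standard errors 0.07, 0.08 and 0.09; limma, adjusted p = 2.96e-07, 1.05e-07 and 2.96e-07), and 1.24% of genes were called higher. In these bulk samples, more cells of a type and more RNA per cell cannot be told apart, nor can fewer cells and less RNA per cell.

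The study asked whether the eIF2αS51A allele alters the changes in 5xFAD mice, and for the C1q genes no difference passed the test. In 5xFAD;eIF2α+/S51A against 5xFAD mice the difference was 0.04 for C1qa (95% interval -0.17 to 0.25), 0.05 for C1qb (-0.18 to 0.29) and -0.10 for C1qc (-0.37 to 0.18), each with limma's adjusted p of 0.9998. These intervals bound what this number of arrays could have missed. In eIF2α+/S51A against wild-type mice the differences were -0.04 (-0.25 to 0.17), -0.06 (-0.29 to 0.17) and 0.01 (-0.26 to 0.29), again with an adjusted p of 0.9998. The interaction, which tests whether the rise itself differed with the allele, was 0.09 for C1qa (-0.21 to 0.38), 0.11 for C1qb (-0.21 to 0.44) and -0.11 for C1qc (-0.50 to 0.28), with an adjusted p of 0.9997. limma called 0% of all genes in each of these 3 comparisons, with 449, 402 and 420 of 18007 genes at an unadjusted p under 0.05, and the unadjusted p of the C1q genes lay between 0.4592 and 0.9097. The signs of several of these small differences turned with the processing.

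The probe sets of a gene did not all follow the gene value. Of the 15 probe sets, 12 were called higher in 5xFAD against wild-type mice and 12 in the same comparison among mice with the allele, where 0.282% and 0.263% of all tested probe sets were called higher. For the transgene effect over all 12 mice 13 were called, against 0.802% of all probe sets, and for the interaction none was called among the 15 or among all probe sets (0%), with the 15 unadjusted p from 0.068 to 0.9982. With no filter on dim probe sets 10, 11 and 13 of the 15 were called in these 3 transgene comparisons. The mice with and without the transgenes did not overlap for 13 of the 15, as for 1.61% of all probe sets. C1qc 4 passed the filter only through the mice with the transgenes, so its rise was in part fixed by the filter, and without it 11, 11 and 12 of 14 were called and 12 of 14 did not overlap. The probe sets of C1qc, C1qc 4 included, were higher by 1.35 to 2.16 over the 12 mice, and 5 of 6 of C1qb rose, by 1.58 to 1.98. Among the 4 probe sets of C1qa, C1qa 2 rose by 1.79 and C1qa 4 by 2.00, C1qa 3 by 0.73 with a standard error of 0.12 (limma, adjusted p = 0.0069), and C1qa 1 differed by 0.08 with a standard error of 0.20. Probe sets are numbered here within their gene in the order of their identifiers, which is not their order along the gene, and their places on the transcripts were not analysed here.

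**Figure D2:**
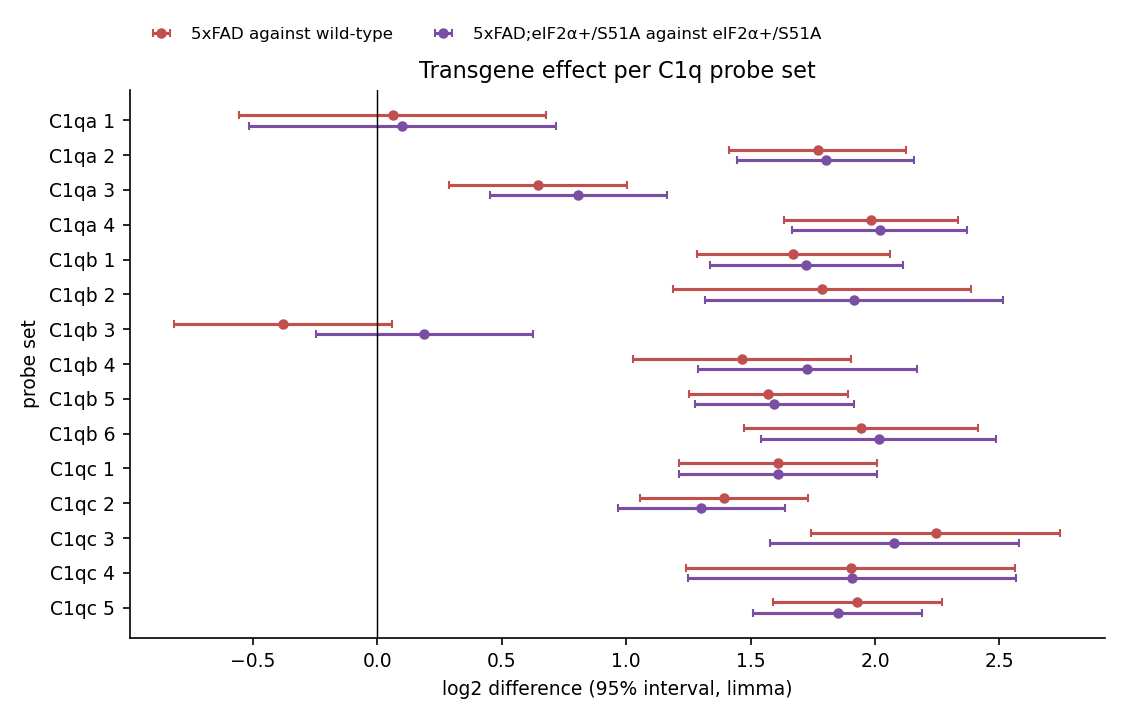
Difference with the 5xFAD transgenes for each of the 15 C1q probe sets (horizontal axis, log2, with 95% intervals from limma), in mice without the knock-in allele and in mice with it. Intervals of C1qa 1 and C1qb 3 include 0 in both comparisons, C1qa 3 lies at 0.65 and 0.81, and the other 12 lie between 1.30 and 2.25.

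The probe sets C1qa 1 and C1qb 3 were called in no comparison. C1qa 1 (identifier 4818499) measured 6.21, 6.19 and 6.45 in wild-type, 6.44, 6.11 and 6.49 in 5xFAD, 6.20, 5.69 and 6.97 in eIF2α+/S51A and 5.97, 6.62 and 6.57 in 5xFAD;eIF2α+/S51A mice. All groups overlapped, and its spread was widest in the eIF2α+/S51A mice. C1qb 3 (identifier 5278469) measured 7.00, 6.94 and 7.13 in wild-type, 6.53, 6.31 and 7.09 in 5xFAD, 6.63, 6.72 and 6.78 in eIF2α+/S51A and 6.67, 6.81 and 7.23 in 5xFAD;eIF2α+/S51A mice. The highest 5xFAD mouse lay within the wild-type range and the other 5xFAD mice lay below it, and the transgene effect was -0.10 with a standard error of 0.14 (limma, adjusted p = 0.9909). C1qa 3 (identifier 5002779) measured 8.47, 8.21 and 8.15 in wild-type, 8.61, 9.19 and 8.98 in 5xFAD, 8.33, 8.55 and 8.26 in eIF2α+/S51A and 9.14, 9.24 and 9.18 in 5xFAD;eIF2α+/S51A mice. This probe set showed the smallest rise among those whose groups did not overlap, with the lowest 5xFAD mouse just above the highest eIF2α+/S51A mouse.

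Probe sets with a full rise are shown by C1qa 4, the strongest of its gene, and by C1qc 3, the strongest of all 15. C1qa 4 (identifier 5116921) measured 7.51, 7.70 and 7.39 in wild-type, 9.40, 9.70 and 9.45 in 5xFAD, 7.78, 7.65 and 7.33 in eIF2α+/S51A and 9.75, 9.66 and 9.41 in 5xFAD;eIF2α+/S51A mice. Its lowest value with the transgenes was 9.40 and its highest without them 7.78. C1qc 3 (identifier 5109188) measured 4.91, 5.82 and 5.34 in wild-type, 7.54, 7.72 and 7.54 in 5xFAD, 5.75, 5.32 and 5.48 in eIF2α+/S51A and 7.23, 7.70 and 7.86 in 5xFAD;eIF2α+/S51A mice. It was dim without the transgenes, where its values lay around the filter at 5.40, and C1qc 4, with group means of 5.15 and 5.20 without the transgenes, passed that filter only through the mice that carried them.

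A test of probe set usage asks whether the probe sets of a gene moved alike. For the transgene effect C1qa and C1qb passed it (limma's diffSplice, F = 36.0 and 24.3, adjusted p = 3.29e-09 and 1.53e-10), as 1.63% of genes did at the same adjusted p of 0.02. C1qc did not (F = 3.78, adjusted p = 0.3448). Set against the other probe sets of its gene, C1qb 3 differed in diffSplice by -1.84 (adjusted p = 1.87e-11), and C1qa 1 by -1.42 (adjusted p = 9.75e-07). C1qa 4 lay above its fellows by 1.14 (adjusted p = 1.03e-04) and C1qa 2 by 0.85 (adjusted p = 0.0091). The test is on signals of oligonucleotide groups, and whether the flat probe sets mark unused exons, unresponsive oligonucleotides or other transcripts was not tested.

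How far the 3 subunits rose in step differed with the summary of their probe sets. With all probe sets, C1qb minus C1qa was 1.98 ± 0.06 in mice with the transgenes and 1.64 ± 0.14 in the others (SD, n = 6 each), a difference of 0.34 (two-sided exact permutation test over 924 splits, p = 0.0022, which is the smallest these can give, and 0.0065 adjusted over 3 pairs). C1qc minus C1qa was 0.04 ± 0.15 against -0.37 ± 0.17, a difference of 0.40 (exact permutation test, two-sided, p = 0.0065, adjusted p = 0.0097), with lowest and highest values of -0.21 and 0.20 against -0.53 and -0.13, which overlap. C1qc minus C1qb was -1.95 ± 0.13 against -2.01 ± 0.10 (difference 0.06, exact permutation test, two-sided, p = 0.3593). C1qa thus rose less than the other genes when each gene was summarized by the median polish of all its probe sets. With the mean of the probe sets as gene value the differences in the same order were 0.29, 0.63 and 0.35 (exact permutation test, adjusted p = 0.0065, 0.0032 and 0.0032), so C1qa again rose least. With the median probe set, an alternative added after the data were seen, they were 0.17, -0.03 and -0.21 (exact permutation test, adjusted p = 0.1169, 0.8247 and 0.1169). Leaving out C1qa 1 and C1qb 3 gave transgene effects of 1.72 for C1qa, 1.70 for C1qb and 1.68 for C1qc and differences between pairs of -0.02, -0.03 and -0.01. These probe sets were dropped because they had not risen, so the last values are a description with no test.

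**Figure D3:**
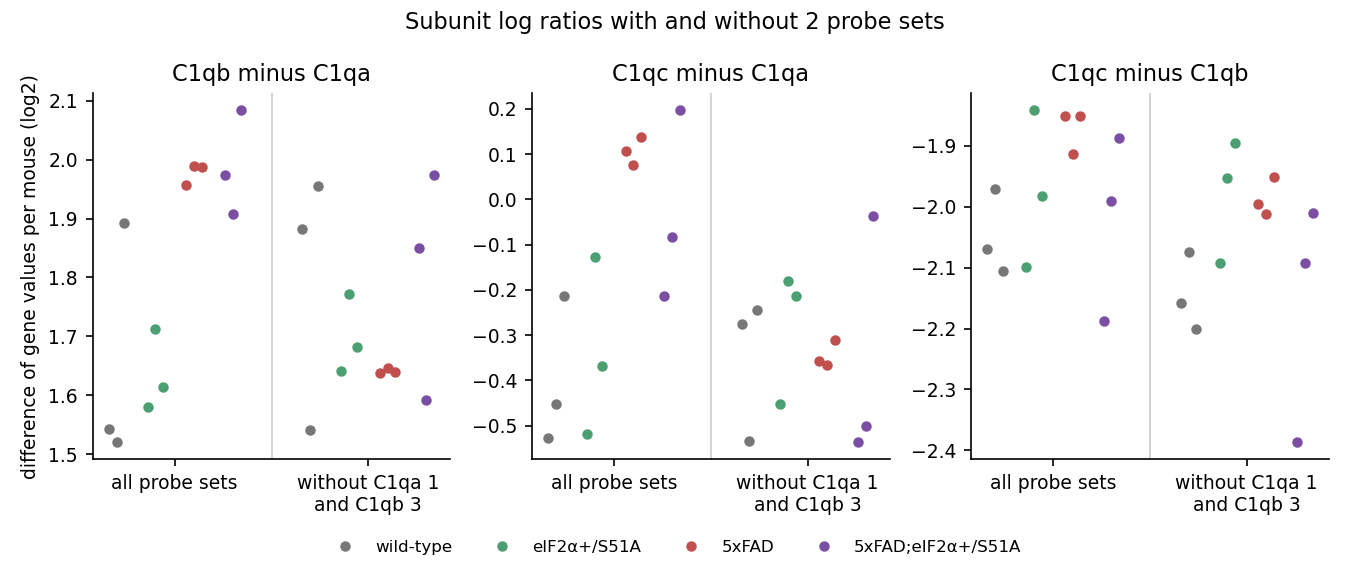
Difference between the gene values of 2 C1q subunits in each mouse (vertical axis, log2), with all probe sets and without C1qa 1 and C1qb 3, 1 point per mouse in 4 groups. With all probe sets C1qb minus C1qa was 1.91 to 2.08 with the transgenes and 1.52 to 1.89 without them, and without the 2 probe sets mice with and without the transgenes overlap in every panel.

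Within groups the 3 subunits varied little from mouse to mouse, and their co-variation was examined separately in mice with and without the transgenes, since these form separate clusters. Of 6 relations none passed after adjustment. In the 6 mice with the transgenes, C1qa and C1qb gave Pearson's r = 0.89 (exact permutation test, two-sided, p = 0.0167, adjusted p = 0.1) and Spearman's rho = 0.77 (p = 0.1028, adjusted p = 0.2056, exact permutation test), and r = 0.68 without the 2 mice farthest from the median. C1qa and C1qc gave r = 0.42 and rho = 0.31 (exact permutation p = 0.4514 and 0.5639), and C1qb and C1qc r = 0.59 and rho = 0.77 (exact permutation p = 0.2111 and 0.1028), with r of -0.45 and 0.45 without the 2 farthest mice. In the 6 other mice C1qb and C1qc gave r = 0.74 and rho = 0.83 (exact permutation p = 0.0847 and 0.0583, adjusted p = 0.2542 and 0.2056) and r = 0.86 without the 2 farthest. C1qa there gave r = 0.07 and rho = 0.03 with C1qb (exact permutation p = 0.9 and 1) and r = -0.07 and rho = -0.03 with C1qc (exact permutation p = 0.8861 and 1), which became -0.61 and -0.76 without the 2 farthest. Leaving out 1 mouse moved r in mice with the transgenes over 0.83 to 0.97, 0.17 to 0.65 and 0.37 to 0.90 for the 3 pairs in the order given, and the r of C1qa and C1qb there was 0.45 without C1qa 1 and C1qb 3. The subunits shared their arrays, and with 6 mice the relations rest on few points.

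Over all 12 mice, with each value taken as its deviation from its group mean, each subunit was set against the mean of the other subunits as a description. The correlation was 0.81 for C1qb, 0.64 for C1qc and 0.42 for C1qa. Placed by these values among 18004 genes ordered by likeness to the subunits, they would stand at 488, 2988 and 6061. Many other genes were thus at least as alike, and the correlations do not set the subunits apart. The 8 genes whose deviations were most like the mean deviation of the 3 subunits were 1110038F14Rik, Tgfbrap1, Yae1d1, Tmem43, Efl1, Fbxo44, Glyr1 and Tmem9, with correlations of 0.95 to 0.97 over 12 mice. None of these was called for the transgenes, and their transgene effects ran from -0.03 to 0.26. Against the marker lists, the mean deviation of the subunits correlated at 0.71 with microglia, 0.59 with astrocytes, 0.56 with oligodendrocytes, 0.43 with neurons, -0.10 with choroid plexus, -0.59 with border macrophages and -0.72 with blood leukocytes. All of these share arrays and 8 residual degrees of freedom, and the leading genes are the extremes of 18004.

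None of the genes next to the C1q cluster passed the test. The 3 tested genes on one side were Kdm1a, a histone demethylase, with a transgene effect of 0.00, Tex46 with 0.02 and the Eph receptor gene Ephb2 with -0.14. On the other side lay the Eph receptor gene Epha8 with 0.10, the zinc finger gene Zbtb40 with 0.09 and the Wnt ligand gene Wnt4 with 0.07. limma called none of the 6 in any comparison, with adjusted p from 0.5086 to 0.9987 for the transgene effect.

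C1q acts through C1r and C1s, and no tested gene on the list of C1 proteases and inhibitor was called. Of the 7 genes on this list, which include the lectin pathway genes Masp1 and Masp2, 5 were tested. None of these was called for the transgenes, and the median effect was 0.09 beside 0.0086 over all genes. As a reference for this and the following lists, 1.24% of all tested genes were called higher for the transgenes. The C1r gene C1ra was at 0.08 and the C1s gene C1s1 at 0.09 (limma, adjusted p = 0.8823 and 0.7895). Serping1, the inhibitor of C1r and C1s, was at 0.81 with a standard error of 0.27 and did not pass (limma, adjusted p = 0.1623). The lectin pathway protease genes Masp1 and Masp2 were at 0.38 and 0.08, and for Masp1 the adjusted p of 0.0028 passed but the fold change did not. C1rb and C1s2 were not tested.

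Downstream of C1, the components C4 and C3 rose and the rest of the cascade did not pass the test. Of 11 genes from C2 to C9, all tested, 2 were called higher and none lower, with a median of 0.06. C4b, which encodes the C4 that C1s cleaves, rose by 1.82 with a standard error of 0.17 (limma, adjusted p = 3.52e-05), and C3, the central component, rose by 1.47 with a standard error of 0.26 (limma, adjusted p = 0.0049). C3 was called only over all 12 mice, with an adjusted p of 0.0351 in 5xFAD against wild-type mice and 0.1829 among mice with the allele (limma). C4a, a close copy of C4b, was at 0.64 with an adjusted p of 5.64e-04 and under the fold threshold, and signals of the pair cannot be told apart with certainty. The remaining 8 genes lay between -0.16 and 0.11.

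**Figure D4:**
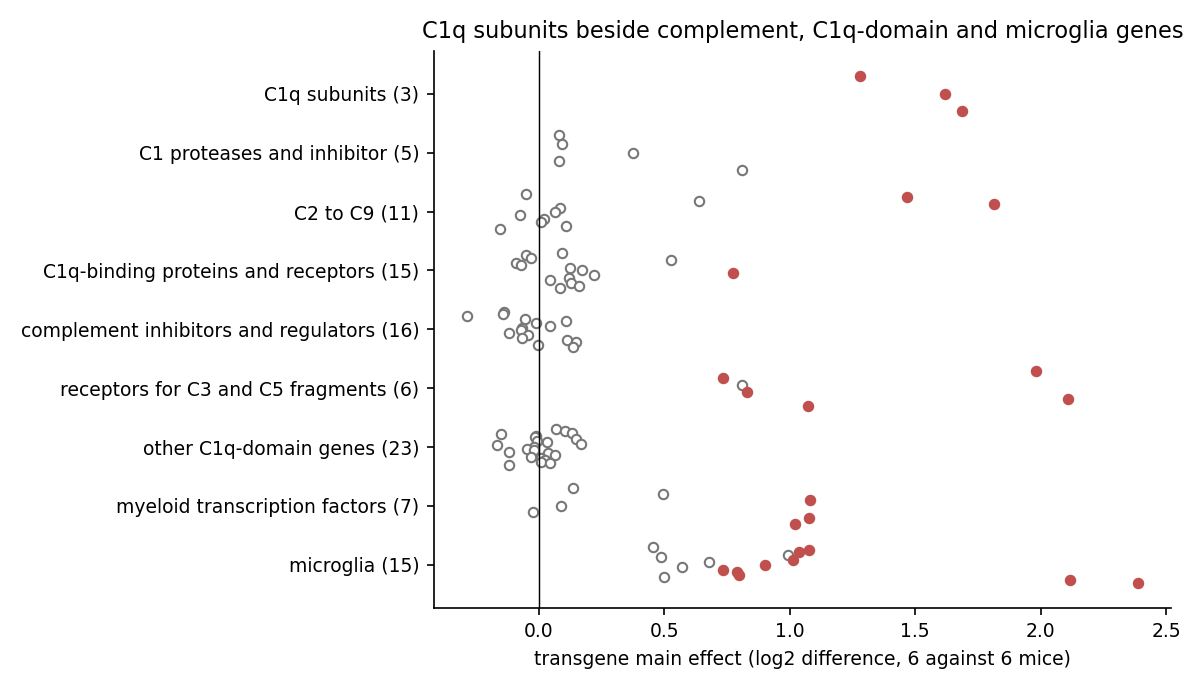
Transgene effect (horizontal axis, log2 difference of 6 against 6 mice) of each tested gene in the C1q subunits and 8 gene lists, with the number of tested genes in brackets; filled points passed the thresholds and open points did not. The 3 subunits lie at 1.28 to 1.68 and the other C1q-domain genes at -0.17 to 0.17. The list of C1 proteases and inhibitor, Masp1 and Masp2 included, lies at 0.08 to 0.81 with none called.

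Of 17 genes for proteins that bind C1q or its ligands 15 were tested and 1 was called higher, with a median of 0.12. That gene was Lair1, an inhibitory leukocyte receptor that binds collagens and C1q, at 0.77 with a standard error of 0.10 (limma, adjusted p = 4.69e-04), which was called among mice with the allele (adjusted p = 0.0050) and not in 5xFAD against wild-type mice (0.0396). Clu, the chaperone clusterin, was at 0.53 (adjusted p = 0.0072) and under the fold threshold, and the endocytic receptor gene Lrp1 was at 0.22 (adjusted p = 0.0943). Of 18 complement inhibitors and regulators 16 were tested and none was called, with a median of -0.05. Those with the smallest p were Cd55, which speeds the decay of convertases, at -0.29, the phagocytosis inhibitor gene Cd47 at -0.14 and Sez6l2 at 0.11 (limma, adjusted p = 0.4548, 0.551 and 0.6262).

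Receptors that recognize the products of C3 and C5 rose with the subunits. Of 7 listed genes 6 were tested and 5 were called higher, beside 1.24% of all tested genes, with a median of 0.95. C3ar1, the receptor for C3a, rose by 1.98 with a standard error of 0.11 (limma, adjusted p = 2.96e-07). The integrin chains of complement receptors CR3 and CR4 also rose, Itgax by 2.11, their shared chain Itgb2 by 1.07 and Itgam by 0.83, and C5ar1, a receptor for C5a, rose by 0.73 (limma, adjusted p = 2e-05, 4.79e-07, 3.59e-04 and 0.0049). C5ar1 was called only over all 12 mice (adjusted p of 0.1056 and 0.0596 in the separate comparisons, limma). C5ar2 was at 0.81 with an adjusted p of 0.0288. Itgam and Itgax are also markers of microglia and other myeloid cells.

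Outside the 3 subunits, no tested gene with a C1q domain passed the test. Of 26 other C1q-domain genes, among them the cerebellins and C1q-like genes of synapses, 23 were tested and none was called higher or lower in any comparison, with a median transgene effect of 0.0067 and a range of -0.17 to 0.17. Those with the smallest p were the C1q-like genes C1ql3 at -0.15 and C1ql1 at 0.10, and C1qtnf6, of a family of secreted proteins, at 0.17 (limma, adjusted p = 0.4032, 0.741 and 0.6262). Among 8 myeloid transcription factors 7 were tested and 3 rose, with a median of 0.50. These were Irf8 and Runx1, both by 1.08, and Spi1, which encodes PU.1, by 1.02 (limma, adjusted p = 8.03e-06, 1.4e-06 and 7.44e-05). Maf, whose product binds sites that contain TGCTGA, was at 0.09 (limma, adjusted p = 0.7373).

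Markers of microglia, the main producers of C1q in brain, moved with the subunits. Of 16 markers 15 were tested, 9 were called higher and none lower, all 15 were positive, and the median was 0.80. Tyrobp and Trem2, a signalling adaptor and its receptor, rose by 2.39 and 2.12, and the receptor gene Csf1r by 1.08. The mean of the 15 markers ranged from 7.76 to 7.94 in wild-type, 8.68 to 8.95 in 5xFAD, 7.82 to 8.06 in eIF2α+/S51A and 8.76 to 8.95 in 5xFAD;eIF2α+/S51A mice, with no overlap between mice with and without the transgenes. The mean of the 3 subunits minus this list mean was 0.89 ± 0.11 with the transgenes (lowest 0.73, highest 1.03) and 0.33 ± 0.06 without them (lowest 0.24, highest 0.39; SD, n = 6 each). The subunits therefore exceeded the list by 0.56 more in mice with the transgenes (exact permutation test, two-sided, p = 0.0022), a rise of 1.53 beside 0.97. The difference was 0.52 with the mean and 0.70 with the median of the probe sets. It was 0.76 with the microglia list shortened by Trem2 and Tyrobp, and 0.73 without the 2 flat probe sets. Trem2 and Tyrobp rose more than the list mean and the flat probe sets had not risen. Leaving them out therefore favours a wider difference, and these last values do not test it.

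Among other cell types, markers of astrocytes were also called. The astrocyte list had 2 of 7 called higher, Gfap by 2.03 and Aqp4 by 0.90, with list means of 9.16 to 9.29 in wild-type, 9.64 to 10.00 in 5xFAD, 9.08 to 9.30 in eIF2α+/S51A and 9.76 to 9.91 in 5xFAD;eIF2α+/S51A mice. None of 5 oligodendrocyte markers was called, with list means of 9.58 to 9.76, 10.07 to 10.13, 9.57 to 10.06 and 9.79 to 10.06 in the same order, where eIF2α+/S51A and 5xFAD;eIF2α+/S51A mice overlapped and wild-type and 5xFAD mice did not. All 5 were positive for the transgene effect, with a median of 0.23. Their smallest adjusted p of 0.0017 (limma) passed, but the fold change of that marker did not. None of 7 markers of border macrophages, 9 of blood leukocytes, 6 of neurons or 10 of choroid plexus was called, with medians of 0.21, 0.10, -0.05 and -0.09. Border macrophages also express C1q, and their list means of 6.23 to 6.67, 6.42 to 6.62, 5.93 to 6.48 and 6.52 to 6.74 overlapped between wild-type and 5xFAD mice and lay apart between eIF2α+/S51A and 5xFAD;eIF2α+/S51A mice. The part of these cell types in the C1q values was not tested. No gene of any of these lists was called for the knock-in allele or for the interaction.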

How the data were processed

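The files hold hippocampal exon array data of 12 mice in 4 genotype groups taken from the labels, 1 array per mouse. The values the authors deposited are log2 signals per probe set. Expression Console with RMA is named in the submitters' notes, the Exon Array Computational Tool in the design text and GC-RMA in the methods; which of them made the table was not settled, no scanner signals were used, and so background correction could not be varied. The genome build of the authors' processing is not given in the sources used here.

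Gene symbols came from the platform annotation, and those of 47350 probe sets were updated through RefSeq names of GRCm38.p6. Probe sets with several symbols (7796) or none (907200) were left out. Probe sets with a mean under the table median (5.40) were dropped. Gene values were the median polish of at least 2 probe sets. limma 3.58.1 (R 4.3.3, data.table version 1.17.8) fitted 1 mean per group over all arrays without covariates, with 8 residual degrees of freedom before moderation. A call was a change of more than 1.6-fold with a Benjamini-Hochberg adjusted p, over all genes or probe sets, under 0.02. Scripts were tested on simulated data. The number of arrays limits the precision, with a median 95% half-width of 0.25 over genes for 3 against 3 mice.

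Named genes were the subunits, 3 flanking genes on each side, all tested C1 proteases and inhibitor genes, called members and up to 3 with the smallest p from each pathway list, the 8 genes most alike in deviations, Thy1, Xist and Ttr, with marker genes named only for their list; Maf was added for its motif. Members and lists were chosen with earlier results of these data known. Alternatives were other probe set summaries, filters, normalizations, covariates, weights, a replicate block and each array left out. Leaving out 2 probe sets, the median of the probe sets for log ratios and the microglia comparison, and each mouse left out of the correlations were added after the data were seen.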

Additional observations from a re-analysis of the deposited data

How the results depend on the processing

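The calls of C1qa, C1qb and C1qc for the transgenes held under every alternative of the gene fit and in all 12 fits without 1 mouse, with transgene effects of 1.24 to 1.31, 1.58 to 1.67 and 1.65 to 1.74 when a mouse was left out. Same-numbered mice of different groups are separate animals, and their deviations correlated at -0.32 to 0.32 over 18 pairs. This range lay within the -0.45 to 0.44 of differently numbered mice of different groups, so the numbers were not treated as a pairing. With the replicate number as a block the effects were 1.28, 1.62 and 1.68, with standard errors of 0.06, 0.07 and 0.07 (limma, adjusted p = 1.09e-06, 1.01e-06 and 5.5e-07). The block changed no call. None of the allele comparisons was called under any alternative, but signs near 0 turned: eIF2α+/S51A against wild-type became 0.0040 for C1qa with the mean of the probe sets, 0.0022 for C1qb with array weights, and -0.11, -0.022 and -0.060 for C1qc with the median, the filter at the 75th percentile and array weights. In 5xFAD;eIF2α+/S51A against 5xFAD mice C1qb became -0.0065 with the median, and C1qa -0.084 with the stricter filter and, alike, without C1qa 1 and C1qb 3, and its interaction was -0.028 under both; the interaction of C1qc was 0.00058 with the median. Without 1 mouse these ranged for eIF2α+/S51A against wild-type from -0.12 to 0.037 (C1qb) and -0.093 to 0.084 (C1qc), for 5xFAD;eIF2α+/S51A against 5xFAD from -0.031 to 0.12, -0.013 to 0.14 and -0.16 to 0.019 (C1qa, C1qb, C1qc), and for the C1qc interaction from -0.18 to 0.0045. The log ratio differences were 0.17, -0.031 and -0.21 with the median (C1qb minus C1qa, C1qc minus C1qa, C1qc minus C1qb), -0.022, -0.034 and -0.012 without the 2 probe sets, and 0.29, 0.63 and 0.35 with the mean (exact permutation test, adjusted p = 0.0065, 0.0032 and 0.0032). In mice without the transgenes r of C1qa and C1qb was -0.23 after quantile normalization and -0.31 with the mean, 0.60 without the 2 probe sets, and -0.64 to 0.45 without 1 mouse; r of C1qa and C1qc was 0.59 without the 2 probe sets and -0.60 to 0.071 without 1 mouse. The causes were not tested, beyond the dropped probe sets themselves. Signal near the filter limits the dim probe sets C1qc 3 and C1qc 4.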
